A study of Homo sapiens with 4 samples.

Results

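The 10 genes described here, which set or oppose the mesenchymal state, were followed through the 4 RNA sequencing libraries. They were chosen by name: 6 transcription factors that induce the epithelial-mesenchymal transition (EMT), namely SNAI1, SNAI2, TWIST1, TWIST2, ZEB1 and ZEB2, and 4 regulators of epithelial identity, namely ESRP1, ESRP2, GRHL2 and OVOL2. Of these 10 genes, 9 had at least 1 count in any library, out of 31907 gene names with a count. The cells were HGC-27, a human line derived from an undifferentiated gastric carcinoma, treated with either PBS (2 libraries) or recombinant interleukin-17B (rIL-17B) at 200 ng/ml (2 libraries), and every library was collected at 48 h. The comparison asked which transcripts differ when the cells are given rIL-17B. A single cell line was used, and the labels do not say whether the replicates were separate cultures, so the p-values measure only the spread between these libraries, which may be technical. The library totals were 15904594 and 12888029 counts for PBS and 14615341 and 17555879 for rIL-17B, and a level is given as CPM, the count per 1e6 counts of its library.

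EMT is the process in which epithelial cells lose their junctions and apical-basal polarity and take on a motile, matrix-producing form. The Snail (SNAI) and ZEB proteins are zinc finger factors that bind E-box elements in epithelial promoters such as that of CDH1 and repress them, while the TWIST proteins are basic helix-loop-helix factors that bind E-boxes as dimers with E proteins. On the epithelial side, the ESRP proteins direct epithelial patterns of splicing, GRHL2 activates junction genes, OVOL2 represses ZEB1 and other mesenchymal genes, and the miR-200 microRNAs and the ZEB factors repress each other.

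The last of these loops rests on short sequences, the microRNA seeds and their matches in the ZEB transcripts. The 5 mature microRNAs of the family carry either of 2 seeds, which differ at a single base, and are printed 5′ to 3′ with the seed (bases 2 to 8) in capitals; their positions are from RefSeq on GRCh38.p14. The first pair shares the seed AACACUG.
hsa-miR-141-3p, chr12:6964155-6964176, plus strand: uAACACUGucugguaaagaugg
hsa-miR-200a-3p, chr1:1167916-1167937, plus strand: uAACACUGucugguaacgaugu
The other 3 share the seed AAUACUG.
hsa-miR-200b-3p, chr1:1167160-1167181, plus strand: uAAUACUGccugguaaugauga
hsa-miR-200c-3p, chr12:6963742-6963764, plus strand: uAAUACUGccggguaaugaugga
hsa-miR-429, chr1:1169055-1169076, plus strand: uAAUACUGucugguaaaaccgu

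The mRNA matches to these seeds, CAGTGTT and CAGTATT, were counted in the longest annotated 3′ untranslated region of each EMT-inducing factor (GENCODE 29 transcripts). ZEB1 held 6 CAGTATT and 3 CAGTGTT matches in 2549 bases. ZEB2 held 5 CAGTATT and 4 CAGTGTT matches in 5370 bases. At least 1 match in the first 2549 bases was present in 48.68% of the 4388 genes with a region at least as long as that of ZEB1, but 9 or more matches were present in 0.04558% of them. For ZEB2, 74.65% of 1077 genes with a region at least as long had at least 1 match, and 0.09285% had 9 or more. Each set includes the queried gene itself. That of ZEB1 also includes ZEB2, whose matches all lie within its first 2549 bases. The shares with 9 or more therefore count the ZEB genes themselves and are not a separate background. SNAI2 held 1 match, and SNAI1, TWIST1 and TWIST2 held 0. Representative stretches of both ZEB genes are shown with the seed match in capitals, because these genes are also the members with the widest differences between libraries below. A match is a description of letters and not evidence of binding, and no microRNA was measured.
ZEB1, chr10:31527621-31527648, plus strand: gttttatcttatCAGTATTatcactctt
ZEB1, chr10:31528034-31528061, plus strand: aatcatcagaatCAGTGTTtgtgattgt
ZEB2, chr2:144389228-144389255, minus strand: aaaaattttgtaCAGTGTTaaggcctaa
ZEB2, chr2:144389044-144389071, minus strand: actaccatacatCAGTATTtttattatt

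The core E-box of the Snail and ZEB factors, CAGGTG, reads CACCTG on the other strand and was searched on both in RefSeq promoters (GRCh38.p14, from 250 bases before to 50 after a start). It was present in 20.59% of 35116 promoters, or in at least 1 promoter of 24.07% of 27305 genes. Among the epithelial genes listed as targets of these factors, 13 of 17 genes with a promoter in the table (76.47%) held it, against 3 of 16 mesenchymal genes (18.75%). The epithelial list was chosen for such targets, so its higher share is not separate evidence. Of its 32 genes, only those 17 had an entry, and CDH1 had none. Of the 10 members, TWIST2, ZEB1 and ZEB2 had a promoter in the table, and only ZEB1 held the element, in 2 of its 7 starts. SNAI1, SNAI2, TWIST1, ESRP1, ESRP2, GRHL2 and OVOL2 had no entry. The ZEB1 promoter with the most copies is printed beside those of DSP (desmoplakin) and JUP (plakoglobin), which encode desmosomal plaque proteins and are the abundant epithelial genes described later that hold the element, with each E-box in capitals. JUP has another start, with the promoter chr17:41786662-41786961, that held 0 copies and is not printed.
ZEB1, chr10:31318966-31319265, plus strand: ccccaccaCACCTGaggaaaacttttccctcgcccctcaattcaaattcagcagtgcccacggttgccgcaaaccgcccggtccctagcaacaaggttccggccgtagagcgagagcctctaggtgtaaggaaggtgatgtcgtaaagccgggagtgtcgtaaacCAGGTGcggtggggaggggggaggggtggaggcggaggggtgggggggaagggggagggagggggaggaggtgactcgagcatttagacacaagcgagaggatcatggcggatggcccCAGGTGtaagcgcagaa
DSP, chr6:7541421-7541720, plus strand: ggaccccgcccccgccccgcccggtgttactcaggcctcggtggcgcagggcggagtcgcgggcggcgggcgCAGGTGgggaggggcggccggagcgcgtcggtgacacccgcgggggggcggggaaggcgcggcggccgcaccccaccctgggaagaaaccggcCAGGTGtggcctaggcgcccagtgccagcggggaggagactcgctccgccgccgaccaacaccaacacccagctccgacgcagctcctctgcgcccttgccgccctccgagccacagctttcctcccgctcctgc
JUP, chr17:41785927-41786226, minus strand: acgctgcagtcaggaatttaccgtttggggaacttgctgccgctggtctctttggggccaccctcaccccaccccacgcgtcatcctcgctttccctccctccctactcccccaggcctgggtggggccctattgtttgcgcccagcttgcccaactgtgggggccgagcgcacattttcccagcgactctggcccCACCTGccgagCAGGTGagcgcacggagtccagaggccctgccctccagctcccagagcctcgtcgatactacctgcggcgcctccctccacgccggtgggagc

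The 2 libraries with rIL-17B were not alike, and this touches every result that follows. Adding 0.5 CPM to each value, 104 of 16361 genes tested (0.636%) were at least 2-fold apart between the PBS libraries. For rIL-17B replicate 2 the numbers were 78 against PBS replicate 1 and 292 against PBS replicate 2. For rIL-17B replicate 1, however, they were 3464 (21.2%) and 3609 (22.1%), and 2771 genes (16.9%) separated it from its own replicate. There were 342 genes with 3 counts or fewer in rIL-17B replicate 1 but 100 or more in all the other libraries, and 0 such genes for any other library. Markers of gastric epithelium were near 0 throughout (10 genes summing to 2.60 to 4.42 CPM, with TFF1, GKN2 and PGC at 0 counts), whereas 10 fibroblast markers summed to 16302 to 19146 CPM in 3 libraries and to 1021 CPM in rIL-17B replicate 1. The labels' account of library making speaks of monocytes, but 12 monocyte and leukocyte markers summed to 9.31 to 17.9 CPM.

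The results showed that the EMT-inducing factors were well detected and the epithelial regulators near 0 under PBS. ZEB1 (ENSG00000148516.21, chromosome 10, 31318495 to 31529814, plus strand, GENCODE 29 on GRCh38) was at 119 ± 4.99 CPM with PBS (SD, n = 2). ZEB2 (ENSG00000169554.19, chromosome 2, 144364364 to 144524583, minus strand) was at 60.4 ± 0.283 CPM, SNAI2 (ENSG00000019549.11, chromosome 8, 48917604 to 48921740, minus strand) at 39.8 ± 4.27 CPM, and SNAI1 (ENSG00000124216.3, chromosome 20, 49982999 to 49988886, plus strand) at 21.2 ± 2.21 CPM. TWIST1 (ENSG00000122691.12, chromosome 7, 19020991 to 19117672, minus strand) was at 11.6 ± 2.51 CPM and TWIST2 (ENSG00000233608.3, chromosome 2, 238848032 to 238910543, plus strand) at 7.26 ± 0.497 CPM. By contrast, ESRP2 (ENSG00000103067.13, chromosome 16, 68229111 to 68238102, minus strand) was at 0.460 ± 0.117 CPM. ESRP1 (ENSG00000104413.16, chromosome 8, 94641074 to 94707466, plus strand) and GRHL2 (ENSG00000083307.11, chromosome 8, 101492432 to 101669726, plus strand) had at most 1 count in any library, and OVOL2 (ENSG00000125850.10, chromosome 20, 17956979 to 18059188, minus strand) had 0 in all 4. A count of 0 has an exact 95% Poisson upper limit of 0.210 to 0.286 CPM, depending on the library. These limits cover counting error only, because amplified reads without molecular identifiers are not independent molecules.

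**Figure D1:**
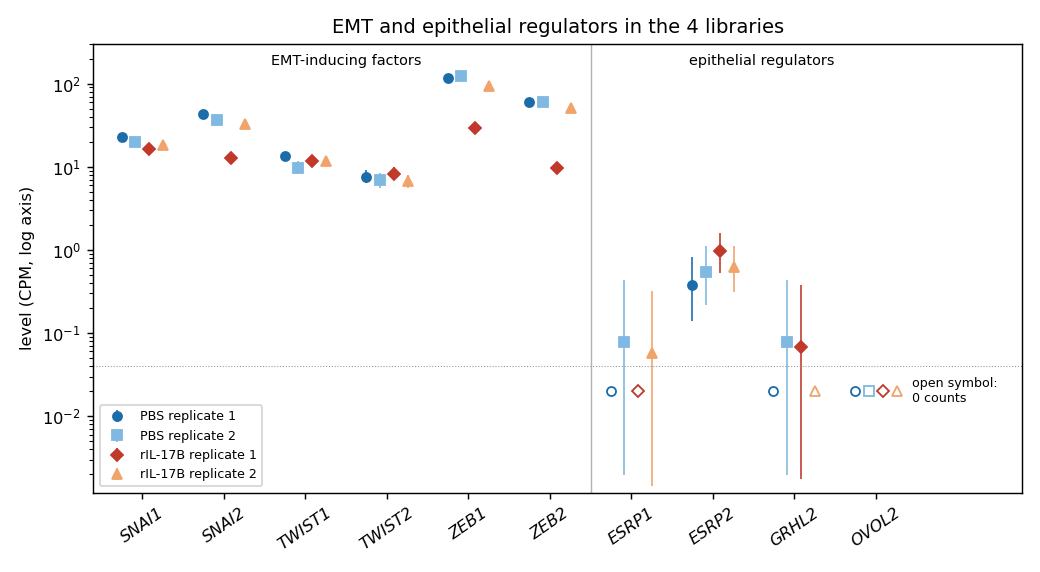
Level of each of the 10 regulators (CPM, log axis) in each library, with bars for the exact 95% Poisson interval of the count and open symbols below the dotted line for 0 counts. The 6 EMT-inducing factors lie between 6.72 and 123 CPM, no library exceeds 0.958 CPM for the 4 epithelial regulators, and rIL-17B replicate 1 lies apart from the other libraries for SNAI2, ZEB1 and ZEB2.

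In the main test of rIL-17B against PBS, none of the members was called. In all, 6 of the 10 members passed the filter on low counts and were tested, and 0 of these 6 were called by the quasi-likelihood test of edgeR at a Benjamini-Hochberg adjusted p of 0.05, beside 0% of all 16361 genes. At an unadjusted p under 0.05 the counts were 0 of 6 members and 226 genes (1.38%). DESeq2 also called 0 members. The 6 fitted log2 fold changes ranged from -1.03 to -0.029, with standard errors of 0.19 to 0.88. Over all genes tested, 7753 fitted fold changes were above 0 and 8608 below. For a single gene, exact permutation of 2 libraries against 2 gives a two-sided p of 0.333 at best. With CPM read directly, both rIL-17B libraries lay below both PBS libraries for SNAI1, SNAI2, ZEB1 and ZEB2, which is 4 of 6 members beside 27.5% of all genes, and both lay above for 0 of 6 beside 31.5% of all genes. The groups overlapped for TWIST1 and TWIST2. The fitted changes depended on which treated library was kept. With rIL-17B replicate 1 alone against PBS, the log2 fold change was -0.50 for SNAI1, -1.78 for SNAI2, -2.15 for ZEB1 and -2.76 for ZEB2. It was -0.13 for TWIST1 and 0.049 for TWIST2. With rIL-17B replicate 2 alone, the values in the same order of genes were -0.20, -0.27, -0.35, -0.27, 0.01 and -0.12.

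ZEB1 is the more widely studied of the ZEB factors and a repressor of CDH1 and of the miR-200 genes. Its counts were 1840 and 1582 with PBS and 432 and 1647 with rIL-17B, or 116, 123, 29.6 and 93.8 CPM. Both treated libraries were thus lower, but the first by far more than the second. The ratio to the PBS libraries together was 0.249 (95% exact counting interval 0.224 to 0.275), or 4.02-fold lower, in rIL-17B replicate 1 and 0.789 (0.744 to 0.837) in rIL-17B replicate 2. The ratio of PBS replicate 2 to PBS replicate 1 was 1.06 (0.991 to 1.14). The fitted log2 fold change was -0.99 with a standard error of 0.66 (adjusted p = 0.661 in edgeR's test). Without rIL-17B replicate 1, it was -0.35 with a standard error of 0.09 (adjusted p = 0.0104 in edgeR's test), and ZEB1 was then the only member called. Over all alternatives its adjusted p ran from 3.73e-83, with replicate 1 as the only treated library, to 0.993 in DESeq2. The fit without rIL-17B replicate 1 sets 1 treated library against 2 and assumes that it varies like the PBS libraries do. ZEB1 exons overlap those of ZEB1-AS1 on the opposite strand, and the sources used here do not say whether counting used strand; ZEB1-AS1 had 24 to 55 counts.

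ZEB2, the paralog of ZEB1 and also a repressor of CDH1, differed most between the treated libraries. Its counts, 964 and 776 with PBS and 143 and 883 with rIL-17B, correspond to 60.6, 60.2, 9.78 and 50.3 CPM. The PBS libraries agreed within counting error, with a ratio of 0.993 (0.903 to 1.09). The ratio to both PBS libraries was 0.162 (0.136 to 0.192), or 6.18-fold lower, in rIL-17B replicate 1, beside 0.832 (0.767 to 0.903) for rIL-17B replicate 2. The log2 fold change of -1.03 had a standard error of 0.88 (adjusted p = 0.663 in edgeR's test), and without rIL-17B replicate 1 it was -0.27 (standard error 0.11, adjusted p = 0.176 in edgeR's test). Its adjusted p ran from 7.75e-81 to 0.993 over all alternatives, with the lowest value when replicate 1 was the only treated library. The antisense gene ZEB2-AS1 had 0 counts in every library. Its exons overlap those of ZEB2, and reads in the shared part may have been left unassigned.

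SNAI2 encodes Slug, the Snail relative known from neural crest migration. Its counts of 681 and 474 with PBS and 187 and 582 with rIL-17B corresponded to 42.8, 36.8, 12.8 and 33.2 CPM. The same library was again far below the rest. Its ratio to both PBS libraries was 0.319 (0.272 to 0.373), or 3.14-fold lower, whereas that of rIL-17B replicate 2 was 0.826 (0.747 to 0.914). The latter was close to the ratio between the PBS libraries, 0.859 (0.762 to 0.967). The log2 fold change of -0.83 (standard error 0.56) was not called (adjusted p = 0.661 in edgeR's test), nor was that of -0.27 without rIL-17B replicate 1 (adjusted p = 0.246 in edgeR's test). Over all alternatives, edgeR's and DESeq2's adjusted p ran from 3.34e-33 to 0.993.

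SNAI1, the founding Snail factor, encodes a protein of short life that is controlled largely by degradation. It had 362 and 253 counts with PBS and 242 and 325 with rIL-17B, and its CPM of 22.8, 19.6, 16.6 and 18.5 spanned a narrow range. The groups did not overlap, yet the gap between the nearest libraries was smaller than that between the PBS libraries. The ratios to PBS were 0.775 (0.665 to 0.901) and 0.867 (0.755 to 0.993) in rIL-17B replicates 1 and 2, beside 0.862 (0.732 to 1.02) between the PBS libraries. The log2 fold change was -0.34 with a standard error of 0.19 (adjusted p = 0.661 in edgeR's test). It was -0.20 (adjusted p = 0.602) without rIL-17B replicate 1 and -0.50 (adjusted p = 0.00366) without rIL-17B replicate 2 in edgeR's test, the latter being the lowest adjusted p of all alternatives and 0.993 in DESeq2 the highest.

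Neither TWIST gene separated the groups. TWIST1, a factor of mesoderm and cranial development, had 212 and 126 counts with PBS and 171 and 206 with rIL-17B, or 13.3, 9.78, 11.7 and 11.7 CPM. Both treated libraries therefore lay between the PBS libraries, and their ratios to PBS were 0.997 (0.824 to 1.20) and 1.00 (0.836 to 1.19). TWIST2, its close relative in mesenchyme and skin, had 121 and 89 counts with PBS and 121 and 118 with rIL-17B, or 7.61, 6.91, 8.28 and 6.72 CPM, and the highest and the lowest value both came from rIL-17B. The log2 fold changes were -0.05 (standard error 0.25) and -0.03 (standard error 0.23), and their sign changed when single libraries were left out, to 0.20 for TWIST1 and 0.051 for TWIST2 without PBS replicate 1. Without rIL-17B replicate 1 they were 0.01 and -0.12. In rIL-17B replicate 1, the library in which the other paralog families were lowest, TWIST2 was at a ratio of 1.14 (0.900 to 1.43).

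**Figure D2:**
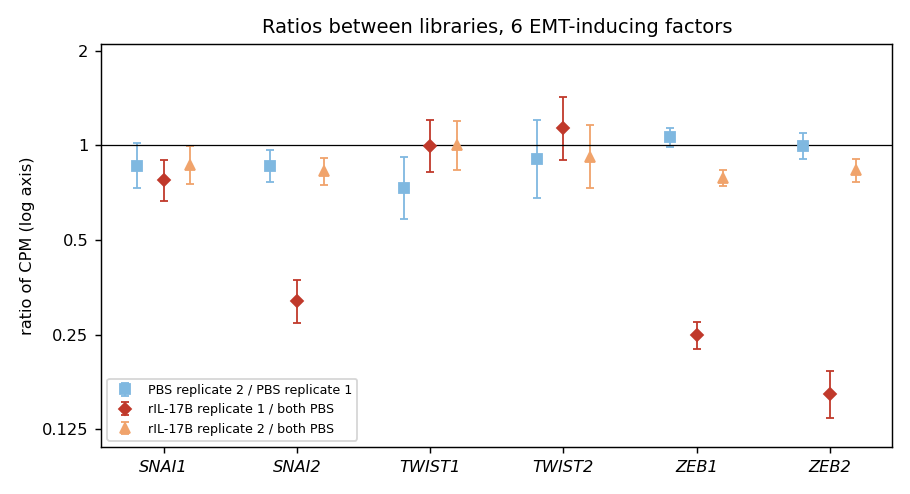
Ratios of CPM between libraries (log axis) for the 6 EMT-inducing factors: PBS replicate 2 over PBS replicate 1, and each rIL-17B library over both PBS libraries, with exact 95% counting intervals. For rIL-17B replicate 1, SNAI2, ZEB1 and ZEB2 lie at 0.319, 0.249 and 0.162, while TWIST1 and TWIST2 lie at 0.997 and 1.14; for rIL-17B replicate 2 the 6 ratios lie between 0.789 and 1.00.

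Counted by size, 3 of the 6 members tested (SNAI2, ZEB1 and ZEB2) were at least 2-fold below each PBS library in rIL-17B replicate 1, where 17.1% of all genes were, and 0 were at least 2-fold above, where 1.57% of all genes were. In rIL-17B replicate 2 the counts were 0 in both directions, where 0.134% of all genes were below and 0.0244% above. In the order of all genes by log2 ratio to PBS, the percent of genes lower than the member was 7.40 for ZEB2, 9.97 for ZEB1 and 12.6 for SNAI2 in rIL-17B replicate 1, and 15.9, 11.4 and 16.0 in rIL-17B replicate 2. SNAI1 stood at 30.5 and 22.3, TWIST1 at 46.3 and 54.7, and TWIST2 at 56.1 and 32.3. The ratios of both treated libraries share the PBS libraries. Because fewer cells of a kind and less RNA per cell cannot be told apart in bulk RNA, the counts do not say which of these a ratio reflects. The part that the low counts of other transcripts in rIL-17B replicate 1 had in these ratios was not tested.

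The epithelial regulators did not pass the filter on low counts, and in the fits without it (edgeR and DESeq2, 9 members tested) 0 members were called. ESRP2, which with ESRP1 promotes epithelial exons in transcripts such as that of FGFR2, had 6 and 7 counts with PBS and 14 and 11 with rIL-17B, or 0.377, 0.543, 0.958 and 0.627 CPM. Both treated libraries were above both PBS libraries. However, the counting intervals of the ratios to PBS, 2.12 (0.925 to 4.90) and 1.39 (0.563 to 3.36), both included 1. ESRP2 exons overlap NFATC3 on the opposite strand, which had 413 to 662 counts, so its few reads cannot be assigned with certainty. ESRP1 had 1 count in PBS replicate 2 and 1 in rIL-17B replicate 2, and GRHL2 had 1 in PBS replicate 2 and 1 in rIL-17B replicate 1. OVOL2 was at 0 in every library; its exons overlap those of SNX5 on the same strand (1033 to 1470 counts), where reads may have been left unassigned. No difference in these 3 genes was detectable.

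Within paralog pairs, the makeup of the Snail and ZEB transcripts also set rIL-17B replicate 1 apart. SNAI1 made up 34.7% (95% exact interval 31.8 to 37.7) and 34.8% (31.3 to 38.4) of the SNAI1 and SNAI2 counts with PBS, and 35.8% (32.7 to 39.1) in rIL-17B replicate 2. In rIL-17B replicate 1 it made up 56.4% (51.6 to 61.2), an interval clear of the other 3. The share of ZEB1 in the ZEB counts was 65.6% (63.8 to 67.4), 67.1% (65.2 to 69.0) and 65.1% (63.2 to 67.0) in PBS replicates 1 and 2 and rIL-17B replicate 2, but 75.1% (71.4 to 78.6) in rIL-17B replicate 1. For TWIST1 in the TWIST counts, the shares of 63.7% and 58.6% with PBS and of 58.6% and 63.6% with rIL-17B had overlapping intervals. These shares do not depend on how libraries are scaled, and since gene length differs within a pair they are shares of reads, not of molecules.

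**Figure D3:**
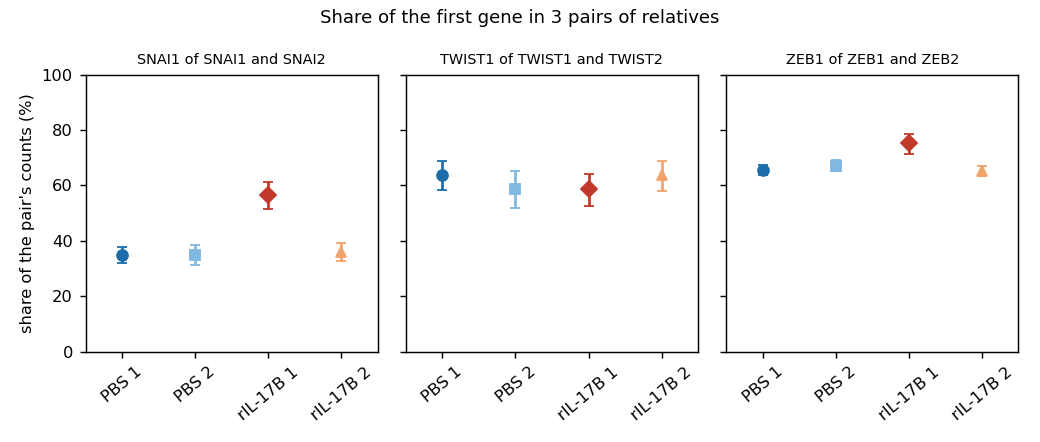
Share of the first gene in the counts of 3 paralog pairs (SNAI1 of SNAI1 and SNAI2, TWIST1 of both TWIST genes, ZEB1 of both ZEB genes) in each library, in percent with exact 95% binomial intervals. The Snail and ZEB shares are near each other in 3 libraries and higher in rIL-17B replicate 1 (56.4% and 75.1%), while the TWIST shares overlap in all 4.

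On CPM per kilobase of merged exons, SNAI1, SNAI2 and ZEB1 were the highest members with PBS. SNAI1, ZEB1 and SNAI2 were at 13.5, 13.4 and 12.6 in PBS replicate 1 and at 11.6, 14.2 and 10.8 in PBS replicate 2, so that their order was not the same in both libraries. Below them came TWIST1 (6.56 and 4.81), TWIST2 (4.05 and 3.68), ZEB2 (2.42 and 2.40) and ESRP2 (0.0678 and 0.0976). The levels of rIL-17B replicate 2 followed the order of PBS replicate 1. The order in rIL-17B replicate 1 was SNAI1 at 9.82, TWIST1 at 5.76, TWIST2 at 4.41, SNAI2 at 3.77, ZEB1 at 3.42 and ZEB2 at 0.390, so that both TWIST genes stood above SNAI2 and both ZEB genes. The order depends on the length used. Per kilobase of the longest coding transcript, a choice made after seeing the data, ZEB1, SNAI2 and SNAI1 were at 19.3, 17.6 and 13.5 in PBS replicate 1 and at 20.5, 15.1 and 11.6 in PBS replicate 2, so that SNAI1 was below both others. ZEB2, whose merged exons span 25058 bases and whose transcript 9583, was at 6.32 and 6.28 on this scale, below TWIST1 (8.001) in PBS replicate 1 and above it (5.87) in PBS replicate 2. On that scale too, SNAI1 at 9.82, TWIST1 at 7.02 and TWIST2 at 5.90 stood above SNAI2 at 5.27, ZEB1 at 4.93 and ZEB2 at 1.02 in rIL-17B replicate 1.

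The wider set of EMT transcription factors held both E proteins and tissue-restricted factors. Of 14 listed, 12 were tested and 0 were called in edgeR's test. The fitted fold change was below 0 for 10, with a median log2 fold change of -0.26 beside -0.03 for all genes, and 4 of 12 were at least 2-fold below each PBS library in rIL-17B replicate 1, beside 17.1% of all genes. With that library as the only treated one, 12 of 13 tested were called (55.1% of all genes), and with replicate 2 as the only one, 0 were (2.95%). TCF3, which encodes the E proteins that pair with TWIST, was at 231 ± 9.04 CPM with PBS (SD, n = 2) and 297 ± 70.9 with rIL-17B. TCF12 and TCF4, which encode the other E proteins, were at 177 ± 20.2 and 107 ± 13.6 CPM with PBS and at 158 ± 1.63 and 74.0 ± 22.0 with rIL-17B. The SOX4 factor was at 100 ± 2.75 and 93.3 ± 11.5 CPM. The mesenchymal homeobox gene PRRX1, picked out after its values were known, had 10 counts in rIL-17B replicate 1 against 550 to 567 in the other libraries.

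Other transcription factors of epithelial cells were mostly scarce. Only 6 of 14 were tested, with a median log2 fold change of 0.13 and 0 called in edgeR's test (4 of 6 with replicate 1 as the only treated library, beside 55.1% of all genes, and 0 with replicate 2, beside 2.95%). MIR200CHG, the host transcript of miR-200c and miR-141, as well as MIR205HG and FOXA2, all chosen after their values were seen, had 0 counts in all libraries. The Krüppel-like factors KLF4 and KLF5 were at 44.2 ± 1.44 and 39.2 ± 1.23 CPM with PBS and 55.8 ± 10.6 and 41.4 ± 4.87 with rIL-17B. ELF3, an epithelial ETS factor, was at 9.54 ± 0.775 and 17.2 ± 7.85 CPM, and the pioneer factor FOXA1 at 2.38 ± 0.629 and 4.61 ± 1.52 CPM. For KLF4, ELF3 and FOXA1, 3 of the 6 tested, both treated libraries were above both PBS libraries, beside 31.5% of all genes. In each, the SD of the treated libraries exceeded that of the PBS libraries.

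The corepressors and modifiers through which Snail and ZEB proteins silence chromatin were expressed throughout. All 17 were tested, 13 had a fitted fold change above 0 and 0 were called in edgeR's test, with a median log2 fold change of 0.18. Both rIL-17B libraries were above both PBS libraries for 10 of the 17 (31.5% of all genes), and for 9 when CPM were scaled by TMM (4680 of 16361 genes). With replicate 1 as the only treated library 14 were called (55.1% of all genes), and with replicate 2 as the only one 0 were (2.95%). The histone deacetylase genes HDAC1 and HDAC2 were at 123 ± 0.103 and 151 ± 0.173 CPM with PBS and at 160 ± 40.9 and 193 ± 40.4 with rIL-17B. EZH2 and EED, which encode subunits of Polycomb repressive complex 2, were at 74.9 ± 3.93 and 25.04 ± 1.40 CPM with PBS and at 117 ± 38.1 and 34.6 ± 6.58 with rIL-17B. SMARCA4, the BRG1 remodelling ATPase, was at 253 ± 23.5 and 323 ± 81.6 CPM. In each of these 5 genes the higher treated value was that of replicate 1. Of all 17, however, 0 were at least 2-fold above each PBS library in replicate 1, beside 1.57% of all genes. At least 2-fold below was 1 of the 17, beside 17.1% of all genes.

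Genes that stabilise or degrade Snail and ZEB proteins went both ways, with more fitted fold changes below 0 than above. Of 19, 18 were tested, 5 with a fitted fold change above 0 and 13 below, the median being -0.09, and 0 were called in edgeR's test (11 of 18 with replicate 1 as the only treated library, near the 55.1% of all genes, and 0 with replicate 2, beside 2.95%). LOXL2, a lysyl oxidase relative known to stabilise Snail, was at 307 and 307 CPM with PBS and at 71.9 and 262 with rIL-17B. Like ZEB1, it was far lower in the first treated library than in the other 3. In that library 3 of the 18 tested were at least 2-fold below each PBS library, near the 17.1% of all genes. The F-box gene FBXO45 was at 29.3 ± 0.309 CPM with PBS and 39.97 ± 5.21 with rIL-17B (log2 fold change 0.37, unadjusted p = 0.0349 and adjusted p = 0.661 in edgeR's test). FBXL14 was at 13.02 ± 0.456 and 11.01 ± 0.588 CPM. The kinase genes ATM and CSNK1A1 were at 113 ± 0.0121 and 115 ± 1.65 CPM with PBS and at 123 ± 17.8 and 115 ± 7.50 with rIL-17B.

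Among epithelial genes that Snail and ZEB factors are known to repress, or that accompany them, 23 of 32 were tested and 0 were called in edgeR's test, against 13 of 24 with replicate 1 as the only treated library, near the 55.1% of all genes, and 3 with replicate 2, beside 2.95%. The fitted fold change was above 0 for 16 and below 0 for 7, with a median of 0.35, and both treated libraries were above both PBS libraries for 10 (31.5% of all genes) and below for 5 (27.5%). CDH1, the E-cadherin gene and the best-known target, stayed under the filter on low counts; its counts, looked up after the other values were known, were 7 and 8 with PBS and 11 and 8 with rIL-17B. In the first treated library, 3 genes were at least 2-fold above each PBS library (KRT8, KRT18 and DSP) and 3 were at least 2-fold below, and with CPM scaled by TMM only KRT8 was above and 3 were below. KRT18 was chosen after its values were seen. KRT8, a keratin of simple epithelia, was at 601 and 611 CPM with PBS and at 1457 and 787 with rIL-17B. DSP was at 303 and 303 CPM with PBS and at 627 and 365 with rIL-17B, and JUP at 201 and 224 with PBS and at 367 and 211 with rIL-17B. The serine protease gene ST14 had 2 and 1 counts with PBS and 10 and 13 with rIL-17B (log2 fold change 2.63, unadjusted p = 0.0186 and adjusted p = 0.661 in edgeR's test). This was 0.126 and 0.0776 CPM with PBS against 0.684 and 0.740 with rIL-17B, so that the treated libraries were near each other, though the values rest on few reads. ST14 passed the filter on low counts only through the rIL-17B libraries. That filter favours a high fold change and a low p here, so neither is evidence of a difference.

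Mesenchymal genes, most of them matrix, cytoskeletal and adhesion genes, were much lower in rIL-17B replicate 1. All 26 were tested, 25 had a fitted fold change below 0 with a median log2 fold change of -1.10, and 0 were called in edgeR's test. All 26 were called with replicate 1 as the only treated library (55.1% of all genes) and 6 with replicate 2 (2.95%). In rIL-17B replicate 1, 22 of 26 were at least 2-fold below each PBS library (17.1% of all genes) and the median log2 ratio to PBS was -3.84, whereas in rIL-17B replicate 2 it was -0.20 with 0 genes past 2-fold. COL1A2, a type I collagen gene, was at 5516 and 5248 CPM with PBS and at 1.09 and 4699 with rIL-17B. FN1 (fibronectin) and COL1A1 went the same way, from 33131 and 32458 CPM and from 7264 and 7511 CPM with PBS to 149 and 205 CPM in rIL-17B replicate 1. THY1 was at 76.0 ± 5.62 and 46.5 ± 23.3 CPM. S100A4, a calcium-binding protein often used as an EMT marker, ran the other way at 187 ± 1.14 CPM with PBS and 295 ± 108 with rIL-17B. VIM and CDH2, the intermediate filament and cadherin of mesenchymal cells, were chosen after their values were seen and were at 280 and 55.8 CPM in rIL-17B replicate 1 against 615 to 727 and 112 to 130 CPM in the other libraries. Accordingly, KRT8 made up 83.9% of the KRT8 and VIM counts in rIL-17B replicate 1 and 45.3% to 56.1% in the others, while CDH1 stayed at 1.33% or less of the CDH1 and CDH2 counts in every library.

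Transcripts whose splicing the ESRP proteins control were present at whole-gene level, which says nothing of which exons they held. All 11 were tested, 3 with a fitted fold change above 0 and 8 below, and 0 were called in edgeR's test (6 of 11 with replicate 1 as the only treated library, near the 55.1% of all genes, and 0 with replicate 2, beside 2.95%). FGFR2, the receptor whose epithelial form depends on ESRP, was at 35.5 and 36.2 CPM with PBS and at 79.0 and 44.4 with rIL-17B (log2 fold change 0.69). It was at least 2-fold above each PBS library in rIL-17B replicate 1, but not with CPM scaled by TMM, where 1 other gene of the list was below instead. CD44 and CTNND1 were at 175 ± 6.69 and 222 ± 4.39 CPM with PBS and at 183 ± 8.31 and 243 ± 20.4 with rIL-17B, ENAH at 204 ± 2.36 and 191 ± 2.59 CPM, and RAC1 at 181 ± 3.16 and 157 ± 14.9 CPM. Of 7 other splicing factors active in EMT, 0 were called and 0 passed 2-fold, while 6 were called with replicate 1 as the only treated library (55.1% of all genes) and 0 with replicate 2 (2.95%). QKI and MBNL1 were at 220 ± 23.2 and 225 ± 14.9 CPM with PBS and at 179 ± 26.2 and 189 ± 24.8 with rIL-17B, whereas HNRNPM and SRSF1 were at 269 ± 2.15 and 165 ± 0.158 CPM with PBS and at 361 ± 84.5 and 222 ± 52.3 with rIL-17B.

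Summed over the 10 members, the counts were 4186 and 3309 with PBS and 1311 and 3773 with rIL-17B, or 263, 257, 89.7 and 215 CPM. Both treated sums were lower, and most of the difference in rIL-17B replicate 1 came from the ZEB genes. ZEB1 made up 44.0% and 47.8% of the sum with PBS and 33.0% and 43.7% with rIL-17B, and ZEB2 made up 23.0% and 23.5% with PBS and 10.9% and 23.4% with rIL-17B. SNAI1 rose as a share of the sum to 18.5% and TWIST1 to 13.04% in rIL-17B replicate 1, from 7.65% to 8.65% and 3.81% to 5.46% in the other libraries. The makeup of the sum thus differed in that library, whereas in rIL-17B replicate 2 the shares of ZEB1, ZEB2 and SNAI1 were near those with PBS.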

How the data were processed

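Per the labels, RNA from HGC-27 cells was reverse transcribed with an oligo-dT primer and amplified by the Smart-seq2 procedure. The submitters' processing notes name HISAT2 2.1.0, Bowtie2 2.2.3, TopHat2 and HTSeq 0.6.0 with the hg38 build. Which annotation was used, and whether reads were counted by strand, is not given in the sources used here. The authors deposited raw read counts per gene name, 1 list per library. Names listed more than once (83 to 98 per library, always with the same count) were kept once, and 22 to 25 entries per library whose names had turned into dates were left out. A name missing from a list was taken as 0 counts. Of 31907 names, 31217 (97.84%) were matched once to GENCODE 29.

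CPM is count divided by the library total, times 1e6. Genes that passed edgeR's filterByExpr (16361) were tested with edgeR 4.0.16 (quasi-likelihood F test, TMM factors of 0.97 to 1.07, Benjamini-Hochberg adjustment over all of them, R 4.3.3), by group alone. The standard error is the size of the log2 fold change divided by the square root of F. Alternatives included DESeq2 1.42.0. Counts of genes past 2-fold used CPM with 0.5 added. Ratios between libraries carry exact 95% intervals of counting error only. The fitting script was tested on simulated counts.

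The members and lists were chosen with earlier results of these data known. The genes named from each list were the 3 tested genes of highest mean CPM, the 2 of smallest p and any gene called. Of marker lists, the highest gene and those at 0 in every library were named. Other genes are given as chosen after their values were seen. The genes at least 2-fold below PBS in the epithelial list are given as a count and not reported here by name.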

Additional observations from a re-analysis of the deposited data

How the results depend on the processing

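With rIL-17B replicate 1 or 2 or either PBS library left out in turn, the genes called in edgeR's test ranged from 0 to 9489 and the members called from 0 to 4. In the same fits the calls ranged from 0 to 12 for the other EMT factors, 0 to 4 for the other epithelial factors, 0 to 14 for the corepressors, 0 to 11 for the Snail and ZEB stability genes, 0 to 13 for the epithelial genes, 0 to 26 for the mesenchymal genes, 0 to 6 for the genes spliced by ESRP proteins and 0 to 6 for the other splicing factors. Without rIL-17B replicate 1, 504 of 17103 genes (2.95%) were called, among them ZEB1, 3 epithelial and 6 mesenchymal genes. Without rIL-17B replicate 2, 9489 of 17223 genes (55.1%) were called, among them SNAI1 (log2 fold change -0.50), SNAI2 (-1.78), ZEB1 (-2.15) and ZEB2 (-2.76). In both fits the lone treated library was assumed to vary like the PBS libraries. The log2 fold change of TWIST1 ranged from -0.26 to 0.20 (0.01 without rIL-17B replicate 1) and that of TWIST2 from -0.12 to 0.051 over these fits.

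The replicate block, upper-quartile factors, no filter, a filter of at least 10 counts in all libraries, a threshold of 0.1 and DESeq2 each left 0 genes and 0 members called. At an unadjusted p under 0.05, the main test had 226 genes, the block 173, upper-quartile factors 190, no filter 879, at least 10 counts 462 and DESeq2 547. The replicate numbers were not taken as pairs, because they are not stated to mark a shared culture. Same-numbered libraries deviated together with a correlation of 0.0800 over 16361 genes. Since rIL-17B replicate 1 lay far from its own replicate, this value cannot tell whether the libraries were paired. Under TMM scaling, the median log2 ratio of all genes in rIL-17B replicate 1 moved by -0.13 (from 0.08 to -0.04), genes at least 2-fold above each PBS library fell from 257 to 81, and the log2 ratio of TWIST1 in that library became -0.12. With 0.1 CPM added, genes past 2-fold in rIL-17B replicate 2 rose from 4 to 26 above and from 22 to 118 below PBS. The cause of these differences was not tested. Depth limits ESRP1, ESRP2, GRHL2 and OVOL2, which had at most 14 counts in any library.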

Other observations

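Marker genes of other cell types gave the following values, in the order PBS replicates 1 and 2 and rIL-17B replicates 1 and 2. Fibroblast markers, led by COL1A1, summed to 19146, 18726, 1021 and 16302 CPM. Of these, 9 of 10 were at least 2-fold below each PBS library in rIL-17B replicate 1, beside 17.1% of all genes. These genes overlap the mesenchymal list and are also made by mesenchymal tumor cells. Neural and glial markers, led by NES, summed to 411, 602, 78.2 and 308 CPM, with SOX10 and DCX at 0 counts. Endothelial markers, led by KDR, summed to 33.3, 41.0, 1.37 and 27.3 CPM, and 6 of 6 tested were at least 2-fold lower in rIL-17B replicate 1 (17.1% of all genes). Monocyte and leukocyte markers, led by CSF1R, summed to 17.3, 17.9, 9.31 and 16.97 CPM, and 6 of 7 tested were at least 2-fold lower in that library (17.1% of all genes). Intestinal markers, led by CDX2, summed to 5.78, 5.59, 4.65 and 5.75 CPM with FABP1 at 0 counts, and gastric markers, led by CLDN18, to 2.77, 4.42, 2.60 and 2.68 CPM. Their part in the values of the EMT-inducing factors was not tested.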
